A study of Mus musculus with 6 samples.

Results

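Ccl21a encodes the chemokine CCL21 and is 1 of the 750 genes whose signal is given in a NanoString nCounter table of endothelial cells sorted from mouse melanomas. The gene was picked from that table for its large difference between genotypes and for its role in lymphocyte homing. Its levels in the 6 samples are therefore a description, and no p-value is given for the difference that led to its choice. CCL21 is a secreted protein that binds glycosaminoglycans on cell surfaces and attracts cells carrying the receptor CCR7, chiefly naive and central memory T cells, B cells and mature dendritic cells. In lymph nodes it is found on high endothelial venules and reticular stromal cells, and in other tissues the lymphatic endothelium is a known source. Together with the related CCR7 ligand CCL19 it belongs to the homeostatic chemokines, which organise lymphoid tissue, as opposed to the inflammatory chemokines that cells release on activation.

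B16-F10 cells, a mouse melanoma line, were grown under the skin of C57BL/6 background mice from 250000 injected cells, and tumors were taken on day 18. The 3 ATG5BECKO samples (replicates 2, 3 and 5) came from mice that carried floxed Atg5, a gene needed to form autophagosomes, and a tamoxifen-inducible Cre recombinase driven by the Pdgfb promoter with a tdTomato reporter, and are meant to lack Atg5 in blood vessel endothelium. The 3 WT samples (replicates 1, 4 and 6) came from the Cre-negative littermates, and tamoxifen was injected once a day for 5 days to induce the deletion. Mice of both sexes aged 7 to 14 weeks were used. Leukocytes were depleted with CD45 beads and the live CD45-CD31+ cells, called tumor endothelial cells (TECs) here, were sorted, a gate that takes blood and lymphatic endothelium alike. Atg5 is not among the 750 genes, so the deletion was not checked in these values. Whether a sample was 1 mouse or a pool is not given in the sources used here. The p-values below therefore set a group difference against the variation between these samples, which need not be that between mice. In limma the variation of each gene is estimated with information shared over the genes fitted.

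The values are log2 normalized counts, where a step of 1 is a doubling, and 379 of the 750 genes passed the low-signal filter of the study and were tested. Total counts ran from 168454 to 198541 in the ATG5BECKO samples and from 76784 to 244561 in the WT samples, the lowest being WT replicate 6. A tested gene had a median of 120 to 139 counts in the ATG5BECKO samples and of 58 to 134 in the WT samples, the 58 being that of WT replicate 6. The 371 genes under the filter, which stand in for background, had a median level of 3.85 to 4.10 in the ATG5BECKO samples and of 3.35 to 4.54 in the WT samples, the highest again in WT replicate 6. All 13 pan-endothelial genes of the list used passed the filter and none differed past the thresholds given below, their mean level being 10.82 ± 0.19 in the ATG5BECKO samples and 10.72 ± 0.03 in the WT samples (SD, n = 3 each).

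Ccl21a lies on mouse chromosome 4 at chr4:42772860-42773991 (GRCm38.p6, minus strand), 16494 bases from Ccl19 at chr4:42754525-42756365. The mouse genome holds several near-identical copies of it. The annotation places Ccl21d at chr4:41903613-41904743, Gm13304 at chr4:42114787-42115917 and Gm10591 at chr4:42612123-42613253, and names a further copy, Ccl21b, between them. It also lists Ccl21c on chromosome 4, at a position not given here. To show how alike the copies are, the 250 bases before the annotated start of Ccl21a (chr4:42773992-42774241) and of Ccl21d (chr4:41903363-41903612) are printed here from RefSeq, with the aligned base at which they differ in capitals.
Ccl21a: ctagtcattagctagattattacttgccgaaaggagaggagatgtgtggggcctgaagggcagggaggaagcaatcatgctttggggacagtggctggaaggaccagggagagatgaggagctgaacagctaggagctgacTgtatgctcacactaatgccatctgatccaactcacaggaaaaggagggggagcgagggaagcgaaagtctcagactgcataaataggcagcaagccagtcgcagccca
Ccl21d: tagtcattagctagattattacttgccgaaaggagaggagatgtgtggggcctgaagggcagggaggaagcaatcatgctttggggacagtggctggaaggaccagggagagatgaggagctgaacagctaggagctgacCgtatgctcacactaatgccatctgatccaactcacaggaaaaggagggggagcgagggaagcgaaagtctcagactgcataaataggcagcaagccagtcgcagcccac
The Ccl21d window starts 1 base further in, and 248 of the 249 aligned bases were identical, the exception being T142C counted from the 5′ end of the Ccl21a window. The windows of Gm13304 and Gm10591 matched that of Ccl21a at 247 of 249 aligned bases each. Over the first 50 bases of the transcript, 48 of 49 aligned bases were the same in Ccl21a and in each of these 3 copies. The window before the annotated start of Ccl21b aligned over fewer than 50 bases and was left out. Ccl21c had no window to compare, so the likeness of these other copies is not shown here. The sequence of the array probe is not among the sources used here. Whether the signal named Ccl21a also counts transcripts of the copies cannot be told apart in these values, and every level below carries that uncertainty. In the Ccl21a window the letters ATAAATA, searched on both strands, stood 30 bases before the start, as they did anywhere in the window in 5.17% of 32851 promoter windows of the same length. The κB consensus and the AP-1 motif TGANTCA had no match in this window on either strand, and 7.25% and 6.75% of all windows hold them.

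In ATG5BECKO TECs the log2 level of Ccl21a was 8.56, 7.96 and 7.55 in replicates 2, 3 and 5, against 5.47, 5.45 and 6.91 in WT replicates 1, 4 and 6. Every ATG5BECKO sample was above every WT sample, which also held for 97 of the 379 tested genes (25.6%), Ccl21a included. Within WT, replicate 6 stood well above the other samples, which were alike. In normalized counts the levels were 377, 250 and 188 in the ATG5BECKO samples and 44.4, 43.9 and 120.02 in the WT samples. The means were 8.02 ± 0.50 in ATG5BECKO TECs and 5.94 ± 0.83 in WT TECs (SD of log2 levels, n = 3 each). The log2 difference of 2.08 had a standard error of 0.46 in the limma fit over all tested genes and corresponded to a 4.23-fold higher geometric mean in ATG5BECKO TECs. In these bulk samples, more cells that express Ccl21a and more Ccl21a RNA per cell in ATG5BECKO TECs cannot be told apart.

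**Figure D1:**
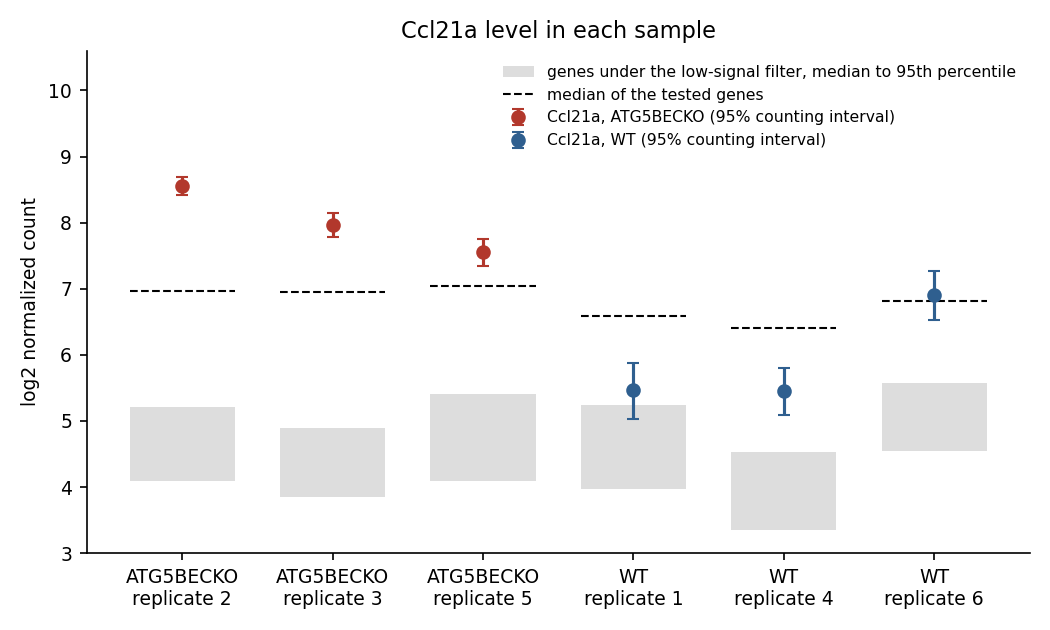
Log2 normalized count of Ccl21a (y axis) in each of the 3 ATG5BECKO and 3 WT samples (x axis), with the 95% counting interval as a bar, the median of the tested genes as a dashed line and the median to 95th percentile of the genes under the low-signal filter as a grey box. The ATG5BECKO samples lie above the dashed line of their own sample, WT replicate 6 lies close to it, and WT replicates 1 and 4 lie below it.

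The raw counts behind these levels, recovered from the deposited values, were 418, 243 and 198 in the ATG5BECKO samples and 48, 69 and 62 in the WT samples. On the log2 scale the exact 95% Poisson intervals were 8.42 to 8.70, 7.78 to 8.14 and 7.35 to 7.76 in ATG5BECKO replicates 2, 3 and 5, against 5.03 to 5.88, 5.09 to 5.79 and 6.52 to 7.27 in WT replicates 1, 4 and 6. These intervals cover counting error only and not the error of the normalization factor. Ordered by level, the samples ran from ATG5BECKO replicate 2 through replicates 3 and 5 and WT replicate 6 to WT replicates 1 and 4. Of the neighbours in this order only WT replicates 1 and 4 had overlapping intervals. The steps between neighbours were 0.59, 0.41, 0.65, 1.43 and 0.02, so the step between the groups was smaller than the step within WT. The raw count of WT replicate 6 was close to those of the other WT samples, and its total was the smallest.

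The 9 pairs of 1 ATG5BECKO and 1 WT sample show how far the size of the difference depends on the pair. Against WT replicates 1 and 4 the ATG5BECKO samples were higher by log2 values of 2.08 to 3.10, whereas against WT replicate 6 the differences were 1.65, 1.06 and 0.65. The lowest ATG5BECKO sample was thus 1.57-fold above the highest WT sample. The spread within each genotype was wide as well. Levels of Ccl21a differed 2.004-fold between the highest and lowest ATG5BECKO sample and 2.74-fold between the highest and lowest WT sample. Its SD of 0.50 among ATG5BECKO samples compares with a median of 0.24 over the tested genes and was exceeded by 14.2% of them. Among WT samples its SD of 0.83 compares with a median of 0.33 and was exceeded by 10.8% of tested genes.

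WT replicate 6 was the sample with the fewest counts and the highest background. Ccl21a was higher there than in the mean of the other WT samples by 1.44 on the log2 scale. Over the tested genes the median of the same difference was 0.20, and over the genes under the filter it was 0.90. Measured from the median of the genes under the filter in its own sample, Ccl21a stood 4.46, 4.12 and 3.46 higher in the ATG5BECKO samples, against 1.50, 2.11 and 2.37 higher in the WT samples. On this scale WT replicate 6 was close to WT replicate 4. The part of depth and background in the level of WT replicate 6 was not tested further. Without that sample the log2 difference of Ccl21a was 2.56 with a standard error of 0.32, a 5.90-fold difference.

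Among all 750 genes Ccl21a ranked 82nd, 120th and 146th by signal in ATG5BECKO replicates 2, 3 and 5, against 332nd, 257th and 178th in WT replicates 1, 4 and 6. Probes differ in how well they capture their targets, so a rank orders signals and not numbers of transcripts. The signal exceeded that of 61.5% to 78.4% of the tested genes in ATG5BECKO TECs and of 13.98% to 53.03% in WT TECs. In the ATG5BECKO samples none of the 371 genes under the filter reached Ccl21a. In WT replicates 1, 4 and 6, 8, 2 and 0 of them did. In WT replicate 1 Ccl21a stood only 0.23 above the 95th percentile of those genes, within its counting interval, against 2.15 to 3.35 above it in the ATG5BECKO samples. A level of Ccl21a above background was thus not detectable in WT replicate 1 beyond counting error at that percentile.

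Set against the median of the tested genes in the same sample, Ccl21a was 1.60, 1.02 and 0.51 higher in the ATG5BECKO samples, whereas the WT values were -1.12, -0.96 and 0.10. Those medians themselves were 6.95 to 7.04 in ATG5BECKO TECs and 6.41 to 6.81 in WT TECs, and the median log2 difference of all tested genes was 0.24. Relative to that shift the difference of Ccl21a was 1.84. Ccl21a was also set against the mean level of the 13 pan-endothelial genes in the same sample. There it stood at -3.07 to -2.27 in the ATG5BECKO samples and at -5.28 to -3.78 in the WT samples.

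**Figure D2:**
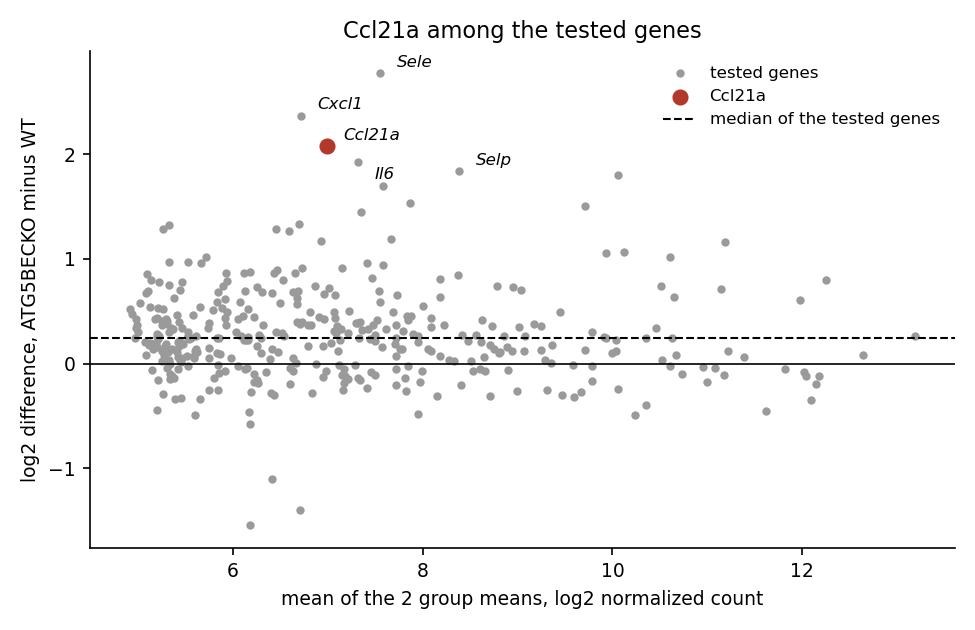
Log2 difference, ATG5BECKO minus WT (y axis), of each of the 379 tested genes against the mean of both group means in log2 normalized counts (x axis), with Ccl21a in red and the median difference of 0.24 as a dashed line. Ccl21a lies among the 5 genes with the highest differences, at a middle level of expression.

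In the order of log2 differences over the 379 tested genes, Ccl21a came 3rd. Above it stood Sele, which encodes the leukocyte-rolling adhesion molecule E-selectin, with 2.77 (standard error 0.95), and Cxcl1, a ligand that attracts neutrophils, with 2.37 (standard error 0.50). Next below were Il6, an inflammatory cytokine, with 1.92 (standard error 0.58), and Selp, which encodes P-selectin, with 1.84 (standard error 0.44). The gaps to Cxcl1, Il6 and Selp were smaller than the standard error of Ccl21a. The gap to Sele was wider but smaller than the standard error of Sele. The place of Ccl21a among these genes is therefore not fixed by these data. Across the processing settings tried, its place ran from 2nd to 7th, and it was 7th without ATG5BECKO replicate 2.

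**Figure D3:**
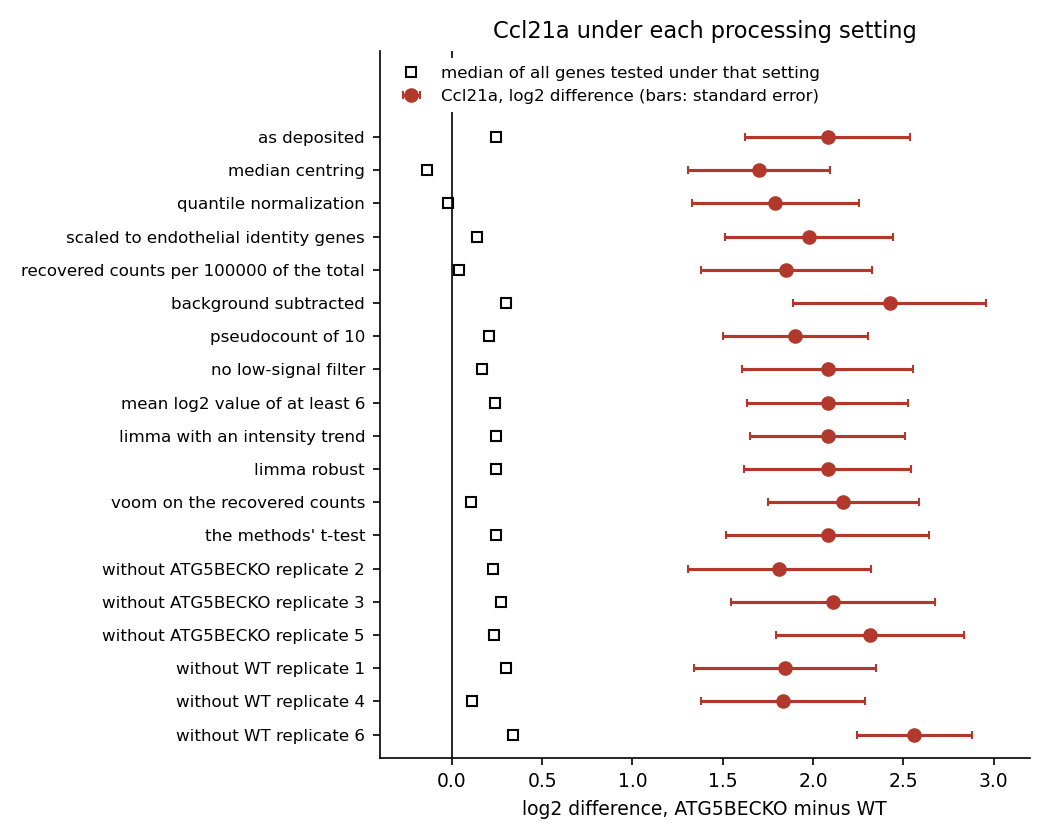
Log2 difference of Ccl21a, ATG5BECKO minus WT (x axis, red, bars give the standard error), under each normalization, filter, model and left-out sample (y axis), with the median over all genes tested under that setting as an open square. The difference stays between 1.70 and 2.56 and above the median of all genes under each setting shown.

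The question then was whether other chemokine ligands moved with Ccl21a. The table holds 36 ligands, Ccl21a included, and 26 of them were under the low-signal filter. Of the other homeostatic chemokines, Ccl19, Cxcl13, Cxcl14, Ccl25, Ccl27a and Ccl28 were all under the filter. Ccl19, the other ligand of CCR7, had 14 to 36 raw counts over the 6 samples. Cxcl12, which retains and guides CXCR4-bearing cells, was the homeostatic chemokine with signal besides Ccl21a, and its levels of 9.47, 10.22 and 8.91 in ATG5BECKO TECs overlapped those of 9.76, 9.71 and 9.94 in WT TECs. Its log2 difference was -0.27 (standard error 0.33), with a limma p adjusted over all tested genes (Benjamini-Hochberg) of 0.77. The difference of Cxcl12 was within its error and turned to 0.04 without ATG5BECKO replicate 5.

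Genes were called at the thresholds of the study, a log2 difference of at least 0.7 in either direction with an unadjusted limma p under 0.05. At these thresholds 44 of the 379 tested genes were called (11.6%), 41 higher in ATG5BECKO TECs (10.8%) and 3 lower (0.792%). Ccl21a is among the 41, but it was picked for its difference, so its inclusion is no test of it. No gene passed an adjusted p under 0.05 in limma, where 61 genes had an unadjusted p under 0.05, nor in voom or the methods' t-test. Of the 9 ligands other than Ccl21a that passed the filter, 2 rose at the study's thresholds and 0 fell. Their median log2 difference was 0.69, against 0.24 over all tested genes, and 8 of the 9 had a positive difference, as did 74.4% of tested genes. Cxcl1 was 7.39, 8.42 and 7.87 in the ATG5BECKO samples and 6.19, 4.43 and 5.95 in the WT samples, with an adjusted p of 0.13 in limma. Cxcl2, which like Cxcl1 acts on the neutrophil receptor CXCR2, was 5.63, 6.58 and 5.51 in the ATG5BECKO samples and 4.41, 4.10 and 5.35 in the WT samples, a log2 difference of 1.29 with an adjusted p of 0.18 in limma. The call of Cxcl2 was lost without ATG5BECKO replicate 3 or WT replicate 1, and in the methods' t-test. Neither gene overlapped between genotypes. Every ATG5BECKO sample was above every WT sample for 3 of the 9 ligands, as for 25.6% of all tested genes. Both Cxcl1 and Cxcl2 were highest in ATG5BECKO replicate 3, where Ccl21a took its middle value.

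The remaining 6 inflammatory ligands above the filter did not pass. Cxcl9, a ligand of CXCR3 on activated T cells, had a log2 difference of 1.29 (standard error 0.62), and its groups overlapped. The monocyte attractant Ccl2 had a difference of 0.72 (standard error 0.32) and Cx3cl1, a membrane-bound chemokine, of 0.69 (standard error 0.34). Ccl4, Cxcl11 and Cxcl3 had differences of 0.43, 0.26 and 0.14, the last 2 of which turned negative with median centring. The highest level of any ligand under the filter in any sample was that of Cxcl10, 6.96 in ATG5BECKO replicate 5, which is below Ccl21a in each ATG5BECKO sample. Ccl21a made up 16.3%, 8.84% and 8.26% of the summed normalized counts of all 36 ligands in ATG5BECKO replicates 2, 3 and 5. In WT replicates 1, 4 and 6 it made up 2.30%, 2.98% and 5.25%. These shares rest on probes of unequal efficiency and compare samples, not ligands.

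**Figure D4:**
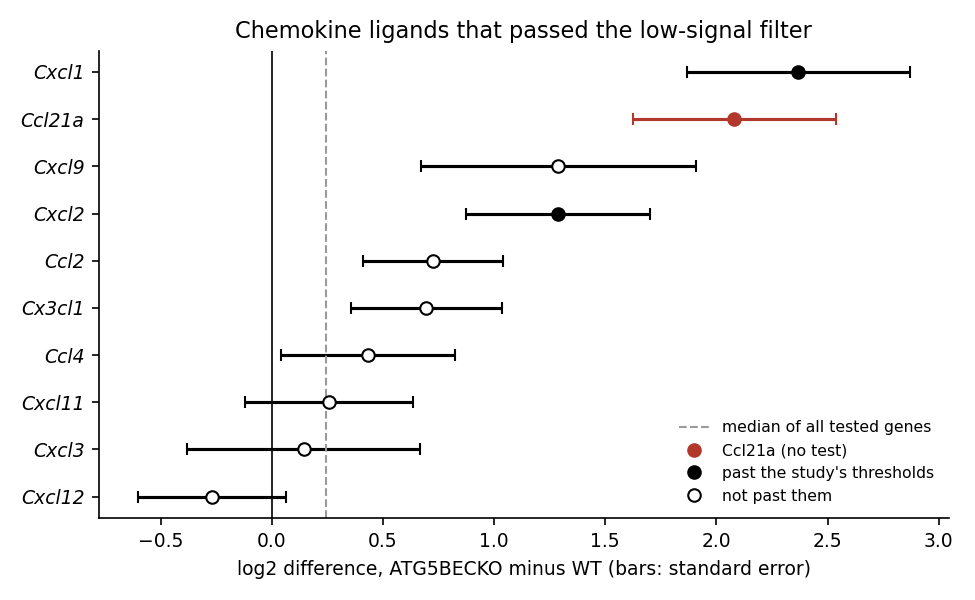
Log2 difference, ATG5BECKO minus WT, with its standard error (x axis), of the 10 chemokine ligands that passed the low-signal filter (y axis), with Ccl21a in red, ligands past the study's thresholds as filled points and the median of all tested genes as a dashed line. Ccl21a has the second highest of the differences, after Cxcl1, and Cxcl12 has the lowest.

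Homing through vessels also needs adhesion molecules. Against 10.8% of all tested genes, 4 of the 5 in the list used rose at the study's thresholds in ATG5BECKO TECs: Sele, Selp, Icam1 and Vcam1. Their limma p-values adjusted over all tested genes were 0.20, 0.13, 0.15 and 0.20. The study had already reported Sele, Selp, Icam1 and Vcam1 as higher in the same data, and the list was chosen with earlier results known. Their count against the share of all tested genes is therefore a description and not a test. Icam2 was not called, with a difference of -0.16. The call of Sele was lost without ATG5BECKO replicate 3 or 5 and that of Vcam1 without replicate 5, while those of Selp and Icam1 held with each sample left out. Both Sele and Vcam1 also lost their calls in the methods' t-test, and Vcam1 with scaling to endothelial genes or total counts. These genes did not share the order of Ccl21a over the ATG5BECKO samples, which was highest in replicate 2 and lowest in replicate 5. Selp had 8.53, 9.42 and 9.96 in ATG5BECKO replicates 2, 3 and 5, against 7.49, 6.88 and 8.03 in WT replicates 1, 4 and 6, and Sele, too, was lowest in ATG5BECKO replicate 2 and highest in replicate 5. In the WT samples Ccl21a, Sele, Selp, Icam1 and Vcam1 were each highest in replicate 6, as were 52.4% of the other 378 tested genes. Sele overlapped between the genotypes, its 8.10 in WT replicate 6 being above its 7.92 in ATG5BECKO replicate 2.

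**Figure D5:**
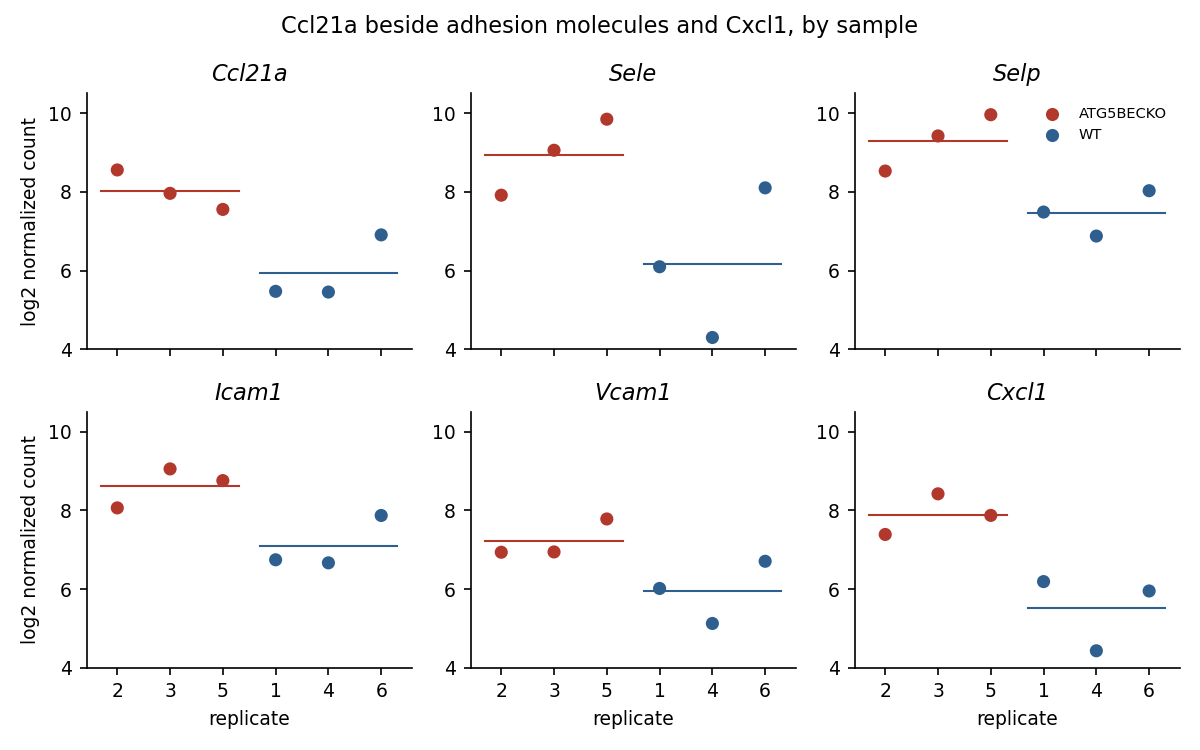
Log2 normalized counts (y axes) of Ccl21a, the adhesion molecules Sele, Selp, Icam1 and Vcam1 and the ligand Cxcl1 in each replicate (x axes), with ATG5BECKO in red, WT in blue and group means as lines. Ccl21a has its highest ATG5BECKO value in replicate 2, where each of the other 5 genes has its lowest.

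Receptors of the lymphotoxin and TNF families act through the non-canonical NF-κB pathway, which is known to drive Ccl21 in lymphoid stroma. Of the 9 genes listed for it, 6 passed the filter. At the study's thresholds 2 rose and 0 fell, against 10.8% and 0.792% of all tested genes. Birc3, a ubiquitin ligase that restrains the pathway, had a log2 difference of 0.80 (standard error 0.24) and Tnfrsf11a, the receptor RANK, of 0.80 (standard error 0.28). Both calls were lost under median centring and without ATG5BECKO replicate 3, among other settings. The subunit genes Relb, with 0.65, and Nfkb2, with 0.69, were under the fold threshold. Every ATG5BECKO sample was above every WT sample for 5 of the 6 genes, as for 25.6% of tested genes, and below for 1, as for 2.11%. The gene below was Cd40, a TNF family receptor gene, with a difference of -0.33 that did not pass the test. The median over the 6 was 0.67, against 0.24 over all tested genes. The lymphotoxin gene Ltb was under the filter. The receptor gene Ccr7 has no row in the table and was not analysed here. Of 10 other homing receptors and integrins in the table, Cxcr4 and Cxcr3 passed the filter, and neither was called, with differences of 0.25 and 0.19 that turned to -0.13 and -0.19 with median centring.

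The gene panel allows only a partial check of which cells carried Ccl21a. Of the 7 lymphatic endothelial genes listed, Prox1, Lyve1, Pdpn and Flt4 have no row in the table and were not analysed here, Mrc1 was under the filter, and Reln and Thy1 passed it. Reln had a difference of 0.21 (standard error 0.29), which turned to -0.16 with median centring. Thy1, which lymphatic endothelium shares with fibroblasts and T cells, fell by 1.10 on the log2 scale, its level being 6.23, 5.71 and 5.63 in ATG5BECKO replicates 2, 3 and 5, against 7.57, 6.95 and 6.35 in WT replicates 1, 4 and 6. The part of lymphatic endothelial cells in the difference of Ccl21a was not tested.

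Of 11 fibroblast, reticular and mural cell genes, 4 passed the filter and 3 of them fell, which are also all 3 genes lower at the study's thresholds. They were Thy1, the matrix glycoprotein gene Olfml2b, with -1.39 (standard error 0.37), and the collagen VI gene Col6a3, with -1.54 (standard error 0.50). The call of Thy1 was lost without ATG5BECKO replicate 3 or 5 and that of Col6a3 without replicate 3, and both in the methods' t-test. The summed normalized counts of the 11 genes ran from 577 to 891 in the ATG5BECKO samples and from 755 to 1262 in the WT samples, so the ranges overlapped. Ccl21a ran opposite to Thy1, Olfml2b and Col6a3 between the genotypes. The part of fibroblast, reticular and mural cells in the difference of Ccl21a was not tested. Lymphocyte markers were low, with 3 of 17 above the filter, none called, and sums of 261 to 387 in ATG5BECKO TECs and 182 to 385 in WT TECs. Of 11 myeloid and dendritic cell genes 3 passed and 1, Cd14, rose with 0.97 (standard error 0.27), against 10.8% of all tested genes. The sums of the 11 genes were 360 to 440 in ATG5BECKO TECs and lay within those of 214 to 573 in WT TECs. The defining T cell genes Cd3d, Cd3e and Cd3g were under the filter in these samples. Log2 values cannot hold a count of 0 and no background was subtracted, so a value for a marker gene under the filter does not show its expression. The lowest recovered count of Cd4 and of Cd5 was 1.

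Among the other 378 tested genes the pattern of Ccl21a over the 6 samples was most like that of Itga1, an integrin chain that binds collagen and laminin, with a Pearson correlation of 0.977. Next came Rad50, a DNA break repair gene (0.974), Dab2, an endocytic adaptor (0.973), Ifngr1, the interferon gamma receptor chain (0.961), and Rps6kb1, a kinase downstream of mTOR complex 1 (0.957). The correlations are descriptions over 6 samples that share their libraries and normalization factors, and a genotype difference of the same sign raises them. The median over the 378 genes was 0.46, and 20 genes were above 0.9. Itga1 and Dab2 were the only genes of the 378 whose 6 samples fell in the same order as those of Ccl21a. Itga1 had 7.24, 7.24 and 7.08 in ATG5BECKO replicates 2, 3 and 5, against 6.15, 5.93 and 6.73 in WT replicates 1, 4 and 6, a much narrower range than that of Ccl21a. After median centring the correlation of Itga1 was 0.979, while that of Ifngr1 turned to -0.43, so the likeness of Ifngr1 depends on the scaling.

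With the group means removed, so that only the variation among samples of 1 genotype remained, the closest genes included Hk1 (0.960), Rictor (0.933), Rad50 (0.928) and Ikbkg (0.919). Hk1, a hexokinase of glycolysis, had a correlation of -0.25 over the 6 samples as they stand, since its own difference between the genotypes was -0.11. Rad50 was the 1 gene among the first 5 in both orders. Of the 378 other genes, 28 (7.41%) had the ATG5BECKO replicates in the same order of level as Ccl21a, and 25.4% had their highest ATG5BECKO value in replicate 2.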

How the data were processed

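RNA from 6 samples of sorted TECs, 10 ng each, was counted by the authors with the NanoString nCounter, which counts barcoded probes without amplification. The deposited log2 values were normalized by the authors in nSolver with 1 housekeeping factor per sample and no background subtraction. Whole counts were recovered from them, with 100% of values whole within a tolerance of 0.01. Genes with a row in the differential expression results of the study, 379 in all, were taken as passing its low-signal filter. limma 3.58.1 in R 4.3.3 (lmFit, eBayes) was fitted to these genes with Benjamini-Hochberg adjustment, and was tested on simulated data. Alternatives were median centring, quantile normalization, scaling to endothelial genes or total counts, background subtraction, a pseudocount of 10, other filters (none, or a mean log2 value of at least 6), limma with an intensity trend or robust, voom, the methods' t-test and leaving out each sample. Named genes were Ccl21a, list members by p (up to 6 a list), the 5 most alike genes by each correlation and the neighbours in log2 difference. 1 gene so named is not reported here. Ccl21a and the lists were chosen with earlier results of these data known. Windows before gene starts came from RefSeq (GRCm38.p6). Plots were drawn with matplotlib 3.10.9.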

Additional observations from a re-analysis of the deposited data

How the results depend on the processing

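The log2 difference of Ccl21a kept its direction under each setting run, from 1.70 with median centring to 2.42 with background subtraction, and from 1.81 to 2.56 when 1 sample was left out, the highest being without WT replicate 6. Ccl21a was picked for its difference and its groups did not overlap, so leaving out 1 sample could not turn its sign. Counts over all genes moved more. The number higher at the study's thresholds was 41, and 17 with median centring, 22 with quantile normalization and 22 with counts per total. The number lower was 3, and 13, 7, 5, 6 and 1 with median centring, quantile normalization, no low-signal filter, voom and the methods' t-test. Calls in the higher direction made up 93.2% of all calls, and 56.7% with median centring and 75.9% with quantile normalization, where the median difference of the tested genes was -0.14 and -0.02 in place of 0.24. The count at an adjusted p under 0.05 was 0, with 1 after background subtraction, and ranged from 0 to 18 with 1 sample left out, the 18 being without WT replicate 6. The ligands that rose besides Ccl21a numbered 2, with 1 in the methods' t-test, and with 1 sample left out the range was 2 to 3, the 3 being without WT replicate 1 or WT replicate 6. Of the 5 genes most like Ccl21a, 1 was also among the first 5 by deviations from the group means and 2 with median centring, and 1 to 5 with 1 sample left out, WT replicate 4 being the only one whose omission kept all 5. Of 13 called genes that the text names from the lists or beside Ccl21a in the order of differences, Cxcl1, Selp, Icam1 and Olfml2b stayed called under all 18 alternatives, and Tnfrsf11a was lost in 12. Differences that turned sign, none of them called, were those of Cxcl11 (-0.12), Cxcl3 (-0.24), Cxcr4 (-0.13), Cxcr3 (-0.19) and Reln (-0.16) with median centring, Cxcl3 (-0.085), Cxcr3 (-0.052) and Reln (-0.012) with quantile normalization, and Cxcl3 (-0.065) and Cxcr3 (-0.018) with counts per total. With 1 sample left out, the difference also turned sign for Cxcl12 (-0.61 to 0.042, the positive value without ATG5BECKO replicate 5), Icam2 (-0.28 to 0.0057, the positive value without ATG5BECKO replicate 3), and, with the lowest value without WT replicate 4, for Cxcl11 (-0.086 to 0.56), Cxcl3 (-0.49 to 0.56), Cxcr3 (-0.36 to 0.50) and Reln (-0.026 to 0.51). The cause was not tested for any of these moves. WT replicate 6, with 76784 counts, limits the precision of low levels. No paired analysis was run, because the sources used here do not record which ATG5BECKO and WT samples came from the same litter.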
